A study of Homo sapiens with 24 samples.

Results

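The 34 genes described here are transcriptional targets of the tumour suppressor p53, taken by gene symbol from a list of known targets. The study's tables hold 16796 genes in all, and 33 of the 34 are among them. The study measured total RNA by sequencing in 4 cultures grown from small-cell lung cancer, an aggressive tumour of neuroendocrine character. H187 and H209 are named ISL1 high by the submitters, and H82 and SHP-77 are named ISL1 low, after a LIM homeodomain transcription factor of neuroendocrine and neuronal cells. Each line received 0.1 nM lurbinectedin, a DNA minor-groove alkylator that blocks transcription, for 24 h. Its DMSO vehicle served as the control in the same line. All cultures were kept in RPMI-1640 medium with fetal bovine serum. The design text calls the 3 libraries of each of the 8 groups biological triplicates, so there are 24 libraries. Each line is a single established culture, and 2 lines per ISL1 class do not represent a class beyond themselves.

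p53 is a transcription factor that is stabilised after DNA damage. It activates genes that halt the cell cycle, repair DNA or kill the cell, and it activates its own inhibitor MDM2, which closes a feedback loop. Several of these targets can also be switched on by other stress factors, among them ATF4 of the integrated stress response.

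Total counts per library ran between 24226553 and 36415190, and no library pair held identical counts. Of 10 neuroendocrine markers, 9 were listed in H209, 9 in H187, 8 in SHP-77 and 8 in H82. NEUROD1, a lineage factor of part of these tumours, averaged 268 CPM (read counts scaled to library size by TMM) in H82 under DMSO, 13.4 in H209 and 0.809 in H187. CHGA, a granule protein, was listed in no table. Of 10 markers of blood, connective tissue, vessel and airway cells, 4 were listed in H209, 4 in H187, 3 in SHP-77 and 2 in H82. Their summed level was 16.5 to 17.6 CPM in lurbinectedin and 15.3 to 18.1 in DMSO libraries of H187. In H209 it was 7.54 to 8.20 CPM in lurbinectedin and 5.97 to 6.81 in DMSO libraries. CD68, a macrophage marker, was the 1 of them past the threshold there, higher in lurbinectedin (log2 fold change 0.84). PTPRC, a leukocyte marker, and ACTA2, a marker of myofibroblasts among other cells, were not listed.

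Promoter windows are printed for 6 members. They were chosen because 4 of them (CDKN1A, PLK3, AEN and PPM1D) were among the members that rose, BTG2 fell, and MDM2 is the classical target. RefSeq sequences (GRCh38.p14, 250 bases ending just before the annotated start site) are printed 5′ to 3′ in lower case, with motif matches in capitals. In AEN and MDM2 the capitals mark a p53 site (2 adjacent half-sites, at most 3 mismatches in 20 bases), in PLK3 a match to TGATGNAA, an element of C/EBP and ATF dimers, and in PPM1D the cAMP response element TGACGTCA. The windows of CDKN1A and BTG2 held no such match. Sequence outside these 250 bases was not searched, so a site further away would be missed. MDM2 has 4 windows, and the one printed is the most downstream.
CDKN1A (chr6:36678464-36678713, plus strand): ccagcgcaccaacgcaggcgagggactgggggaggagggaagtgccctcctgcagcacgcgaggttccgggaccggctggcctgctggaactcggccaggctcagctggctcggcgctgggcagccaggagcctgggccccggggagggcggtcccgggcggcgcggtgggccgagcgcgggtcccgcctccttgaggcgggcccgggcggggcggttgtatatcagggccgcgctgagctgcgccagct
PLK3 (chr1:44800127-44800376, plus strand): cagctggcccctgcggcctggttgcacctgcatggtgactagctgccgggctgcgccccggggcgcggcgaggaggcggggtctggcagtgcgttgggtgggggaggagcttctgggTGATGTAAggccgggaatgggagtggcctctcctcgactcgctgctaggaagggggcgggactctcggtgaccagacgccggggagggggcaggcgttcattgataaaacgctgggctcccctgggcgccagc
AEN (chr15:88621090-88621339, plus strand): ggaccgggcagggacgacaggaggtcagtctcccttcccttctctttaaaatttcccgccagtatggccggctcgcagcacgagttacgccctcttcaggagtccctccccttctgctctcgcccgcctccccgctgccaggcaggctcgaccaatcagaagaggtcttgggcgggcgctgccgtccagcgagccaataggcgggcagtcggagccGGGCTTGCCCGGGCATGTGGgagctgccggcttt
PPM1D (chr17:60599943-60600192, plus strand): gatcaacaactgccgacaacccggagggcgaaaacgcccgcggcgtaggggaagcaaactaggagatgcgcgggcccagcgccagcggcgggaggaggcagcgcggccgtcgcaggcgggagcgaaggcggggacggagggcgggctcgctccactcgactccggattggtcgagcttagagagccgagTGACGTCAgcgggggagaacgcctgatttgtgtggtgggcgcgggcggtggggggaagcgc
BTG2 (chr1:203305269-203305518, plus strand): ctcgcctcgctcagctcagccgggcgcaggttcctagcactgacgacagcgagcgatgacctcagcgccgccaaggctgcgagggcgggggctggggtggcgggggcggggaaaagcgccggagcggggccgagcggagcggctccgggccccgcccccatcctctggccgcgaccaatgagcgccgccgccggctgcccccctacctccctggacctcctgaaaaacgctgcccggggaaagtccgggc
MDM2 (chr12:68808774-68809023, plus strand): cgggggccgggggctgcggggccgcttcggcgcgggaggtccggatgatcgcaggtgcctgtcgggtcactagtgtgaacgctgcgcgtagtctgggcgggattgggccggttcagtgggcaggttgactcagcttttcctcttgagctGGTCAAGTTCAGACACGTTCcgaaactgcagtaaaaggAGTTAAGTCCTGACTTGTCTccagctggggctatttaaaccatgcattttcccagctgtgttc

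Both strands were searched. In 35116 such windows of 27305 genes, 4.36% held the p53 site, 5.57% an exact half-site of 10 bases, 1.65% TGACGTCA and 3.14% TGATGNAA. Of the 34 members, 27 had a window. The others were FBXO22, GADD45A, TNFRSF10A, TNFRSF10B, PHLDA3, TP53INP1 and RRM2B. The p53 site stood in 7 of the 27 (AEN, FAS, FDXR, MDM2, RPS27L, SESN1 and TRIM32). Counted by gene as the members are, 5.38% of the 27305 genes held the p53 site, 2.03% TGACGTCA and 3.89% TGATGNAA. In MDM2 the sites began 101 and 63 bases before the start site, and in AEN 34 bases before it. PLK3 was the 1 member with TGATGNAA, 133 bases before its start, and PPM1D the 1 member with TGACGTCA, 61 bases before its start. These distances run to the RefSeq start site at the end of each window. The hg38 gene spans given below come from another annotation. For AEN and PLK3 they begin inside the window, and for CDKN1A before it. A match describes these letters and was not tested as a binding site.

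More members were called in the ISL1-high lines, where more of all genes were called too, and no line showed the whole group moving. In H209, 12 of the 29 members tested were higher and 4 lower (edgeR quasi-likelihood test, Benjamini-Hochberg adjusted p under 0.05), where 22.7% of all genes were called higher, 22.5% lower and 45.2% in either direction. In H187, 8 of 29 were higher and 4 lower, where 12.2% of all genes were called higher, 12.7% lower and 24.9% in either direction. In H82 the call fell on 1 of 28 members, higher, against 1.55% of all genes higher, 1.38% lower and 2.92% in either direction. In SHP-77 it fell on 1 higher and 1 lower of 29, against 1.98% of all genes higher, 3.21% lower and 5.19% in either direction. The members called were 55.2% of those tested in H209, 41.4% in H187, 6.90% in SHP-77 and 3.57% in H82. In H209, SHP-77 and H82 these shares in either direction are near those of all genes, as is the H209 share of members whose libraries do not overlap. By direction the H209 calls leaned higher, with 12 of 29 members against 22.7% of all genes. Lower calls there were 4 of 29 against 22.5%. The median log2 fold change of the members tested was 0.13 in H209, 0.09 in H187, 0.04 in SHP-77 and 0.01 in H82, beside 0.00 over all genes in each line. Libraries of the drug and the vehicle did not overlap for 16 of 29 members in H209 (52.1% of all genes), 13 of 29 in H187 (38.8%), 9 of 29 in SHP-77 (22.0%) and 8 of 28 in H82 (21.8%). Since these are bulk cultures, fewer cells of a type and less RNA per cell cannot be told apart.

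Some members could not be tested everywhere. The deposited tables do not list the same genes. FAS, TNFRSF10B, SPATA18 and DRAM1 were each listed in 1 or 2 of the 4 line tables, EDA2R and PHLDA3 in 2, PLK2 and CDKN1A in 3, and TNFRSF10A in none. The other 25 were listed in all 4. Every member that a line table lists also passed the filter on low counts, so all listed members were tested.

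**Figure D1:**
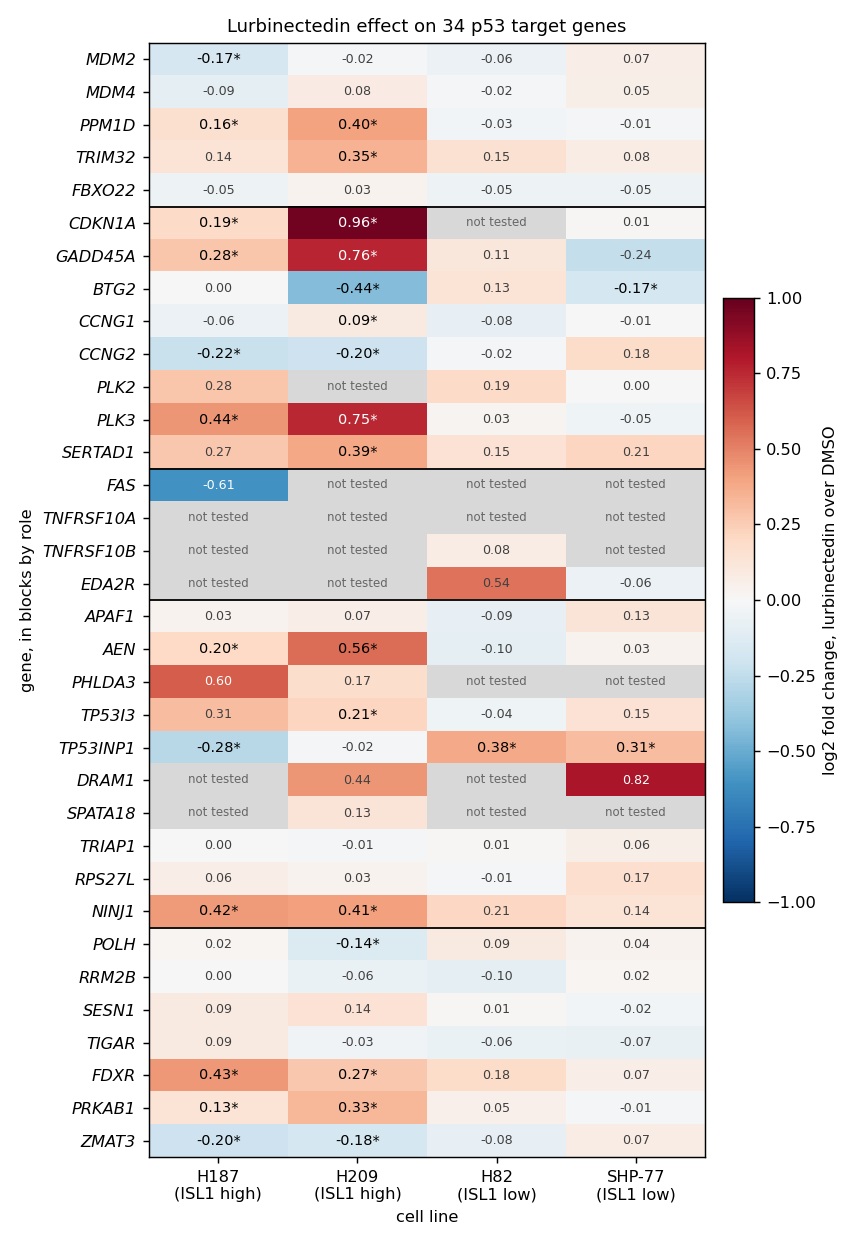
Log2 fold change (lurbinectedin over DMSO) of the 34 members (rows, in blocks for feedback regulators, arrest genes, death receptors, death and autophagy genes, and repair and metabolism genes) in the 4 lines (columns). Red is higher and blue lower in lurbinectedin, a star marks an adjusted p under 0.05, and grey cells were not listed in that line. The darkest starred cells are CDKN1A (0.96), GADD45A (0.76) and PLK3 (0.75) in H209.

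Among the feedback regulators, MDM2, the ubiquitin ligase that removes p53 and the target most often used to read its activity, was called higher in none of the 4 lines. In H187, MDM2 had 454, 486 and 455 CPM in lurbinectedin libraries, against 501, 519 and 549 CPM in DMSO libraries. Every lurbinectedin library lay below every DMSO library there, and the effect was -0.17 ± 0.04 (log2 fold change and its SE; adjusted p = 0.00287). In H209, MDM2 had 298, 298 and 302 CPM in lurbinectedin libraries, against 298, 306 and 308 CPM in DMSO libraries, which overlapped (log2 fold change -0.02 ± 0.03, adjusted p = 0.62). Neither ISL1-low line passed. In H82, MDM2 had 149, 156 and 155 CPM in lurbinectedin libraries, against 163, 160.2 and 157 CPM in DMSO libraries. In SHP-77, MDM2 had 286, 300.3 and 294 CPM in lurbinectedin libraries, against 281, 277 and 283 CPM in DMSO libraries. The H82 libraries did not overlap and neither did those of SHP-77, yet the fold changes of -0.06 ± 0.04 and 0.07 ± 0.03 (log2, SE) had adjusted p of 0.45 and 0.202.

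PPM1D and TRIM32 were the feedback genes that rose in H209. PPM1D, the WIP1 phosphatase that switches the damage response off, is shown by library although it was chosen after its values were seen. In H209, PPM1D had 80.1, 75.4 and 72.8 CPM in lurbinectedin libraries, against 57.9, 56.3 and 58.6 CPM in DMSO libraries. In H187, PPM1D had 101, 101 and 98.2 CPM in lurbinectedin libraries, against 88.5, 87.8 and 93.1 CPM in DMSO libraries. Neither pair overlapped. PPM1D rose by 0.40 ± 0.04 (log2, adjusted p = 5.88e-12) in H209 and by 0.16 ± 0.04 in H187 (adjusted p = 0.0118), a call lost without DMSO replicate 2 of H187. Its log2 fold changes of -0.03 ± 0.04 in H82 and -0.01 ± 0.05 in SHP-77 did not pass. TRIM32, a ubiquitin ligase, rose by 0.35 ± 0.04 in H209 (45.9 ± 1.11 CPM in lurbinectedin and 35.9 ± 0.206 in DMSO, SD, n = 3 each), and its log2 fold changes of 0.14 in H187, 0.15 in H82 and 0.08 in SHP-77 did not pass. MDM4, the structural relative of MDM2, and FBXO22, an F-box protein, passed in no line, with log2 fold changes between -0.09 and 0.08. In H209, MDM4 did pass as higher with a correction for transcript GC content (edgeR adjusted p = 0.029). It also passed there without DMSO replicate 2 (adjusted p = 0.0242) or 3 (adjusted p = 0.0256).

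The arrest genes held the largest rises past the threshold. CDKN1A (chromosome 6, 36676460 to 36687339 in the files' hg38 coordinates) encodes p21, which inhibits cyclin-dependent kinases. In H209 CDKN1A had 98.9, 101 and 95.8 CPM in lurbinectedin libraries, against 50.8, 49.0 and 52.2 CPM in DMSO libraries. The groups stood far apart, with a log2 fold change of 0.96 ± 0.04 (adjusted p = 2.19e-25). In H187 CDKN1A had 112, 117 and 114 CPM in lurbinectedin libraries, against 99.4, 103 and 98.7 CPM in DMSO libraries. That rise was small, without overlap (0.19 ± 0.04, adjusted p = 0.00266). In SHP-77 CDKN1A had 133, 127 and 133 CPM in lurbinectedin libraries, against 135, 129.6 and 125 CPM in DMSO libraries, which overlapped (0.01 ± 0.03, adjusted p = 0.889). The H82 table does not list CDKN1A. The table that sets ISL1-high against ISL1-low lines under the drug gives 11, 9 and 3 counts in the lurbinectedin libraries of H82, a mean of 0.269 CPM, and its DMSO level in H82 is not analysed here.

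Because H82 lacks CDKN1A, its response was compared between lines in fits of 2 lines at a time, an analysis added after the data were seen. H209 exceeded H187 by 0.78 ± 0.05 (log2, adjusted p = 6.79e-12), in a comparison that called 10.4% of genes. H209 exceeded SHP-77 by 0.96 ± 0.05 (adjusted p = 5.31e-16), where 28.4% of genes were called. H187 exceeded SHP-77 by 0.18 ± 0.05 (adjusted p = 0.0297), where 10.7% were called. The fits that pair H82 with H187, H209 and SHP-77 called 10.2%, 26.9% and 0.205% of genes, and CDKN1A is not in them.

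GADD45A (chromosome 1, 67685177 to 67688338), a stress protein that binds p21 and PCNA, was also higher in both ISL1-high lines. GADD45A had 23.0, 21.2 and 24.0 CPM in lurbinectedin libraries of H209, against 13.9, 12.4 and 14.3 CPM in DMSO libraries, with no overlap (0.76 ± 0.07, adjusted p = 1.34e-12). In H187, GADD45A had 14.8, 13.6 and 13.1 CPM in lurbinectedin libraries, against 11.0, 12.2 and 11.1 CPM in DMSO libraries. The H187 rise of 0.28 ± 0.08 (adjusted p = 0.0162) did not pass without lurbinectedin replicate 1 or without DMSO replicate 1. In H82, GADD45A had 22.1, 23.0 and 20.5 CPM in lurbinectedin libraries, against 18.8, 21.3 and 20.6 CPM in DMSO libraries, which overlapped. In SHP-77, GADD45A had 10.3, 8.36 and 9.14 CPM in lurbinectedin libraries, against 10.7, 10.5 and 11.5 CPM in DMSO libraries. The SHP-77 groups did not overlap, but the log2 fold change of -0.24 ± 0.08 had an adjusted p of 0.119.

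PLK3 (chromosome 1, 44800225 to 44805995) encodes a stress-responsive polo-like kinase. It had 4.56, 5.86 and 5.23 CPM in lurbinectedin libraries of H209, against 2.93, 2.77 and 3.55 CPM in DMSO libraries. In H187, PLK3 had 13.0, 11.0 and 9.90 CPM in lurbinectedin libraries, against 8.68, 8.70 and 7.43 CPM in DMSO libraries. Neither line's groups overlapped, and the log2 fold changes were 0.75 ± 0.14 in H209 (adjusted p = 1.45e-05) and 0.44 ± 0.10 in H187 (adjusted p = 0.00358). In H82, PLK3 had 6.56, 6.59 and 6.84 CPM in lurbinectedin libraries, against 7.56, 6.53 and 5.45 CPM in DMSO libraries. In SHP-77, PLK3 had 6.92, 7.46 and 7.18 CPM in lurbinectedin libraries, against 7.52, 7.56 and 7.16 CPM in DMSO libraries. Both pairs overlapped, with log2 fold changes of 0.03 ± 0.11 in H82 and -0.05 ± 0.09 in SHP-77.

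BTG2, an antiproliferative gene with a well-known p53 response element, went the other way in H209. It is singled out after its values were seen. It had 160.5, 163 and 173 CPM in lurbinectedin libraries of H209, against 217, 231 and 224 CPM in DMSO libraries, with a log2 fold change of -0.44 ± 0.03 (adjusted p = 9.58e-15). The groups did not overlap. In SHP-77, BTG2 had 119.6, 114 and 114 CPM in lurbinectedin libraries, against 129, 137 and 126 CPM in DMSO libraries, a fall that passed (-0.17 ± 0.03, adjusted p = 0.00207). In H187, BTG2 had 132, 132 and 134 CPM in lurbinectedin libraries, against 132, 132 and 135 CPM in DMSO libraries. In H82, BTG2 had 61.2, 62.3 and 58.2 CPM in lurbinectedin libraries, against 55.6, 55.8 and 54.3 CPM in DMSO libraries, which did not overlap but did not pass (0.13 ± 0.04, adjusted p = 0.0893).

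The remaining arrest genes moved less. CCNG2, a cyclin of growth arrest that FOXO factors also control, fell by 0.22 (log2) in H187 and by 0.20 in H209, and in SHP-77 its log2 fold change of 0.18 stood at the edge of the threshold (adjusted p = 0.0515). That SHP-77 value passed with RLE size factors (adjusted p = 0.0496), by DESeq2 (0.0434), in the joint fit (0.017), in the authors' deposited table (0.0427), with the GC correction (0.0165) and without DMSO replicate 3 (0.00802). SERTAD1, a regulator of CDK4 and E2F, rose by 0.39 ± 0.14 in H209, at a low level (4.89 ± 0.806 CPM in lurbinectedin and 3.69 ± 0.383 in DMSO), a call lost without DMSO replicate 3 or lurbinectedin replicate 2. CCNG1, cyclin G1, passed in H209 at 0.09 ± 0.04 (adjusted p = 0.0443), with overlapping groups, and lost the call in 4 of the 6 fits that leave out 1 library, those without lurbinectedin replicate 1 or 2 or DMSO replicate 2 or 3. It did not pass by DESeq2 (adjusted p = 0.116), in the joint fit of 24 libraries (adjusted p = 0.15) or in the authors' deposited table (adjusted p = 0.0631). PLK2, the polo-like kinase of centriole duplication, passed in none of the 3 lines that list it, and its log2 fold changes were 0.28 in H187, 0.19 in H82 and 0.00 in SHP-77. In the lurbinectedin libraries of H209 it had 0.219 CPM.

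**Figure D2:**
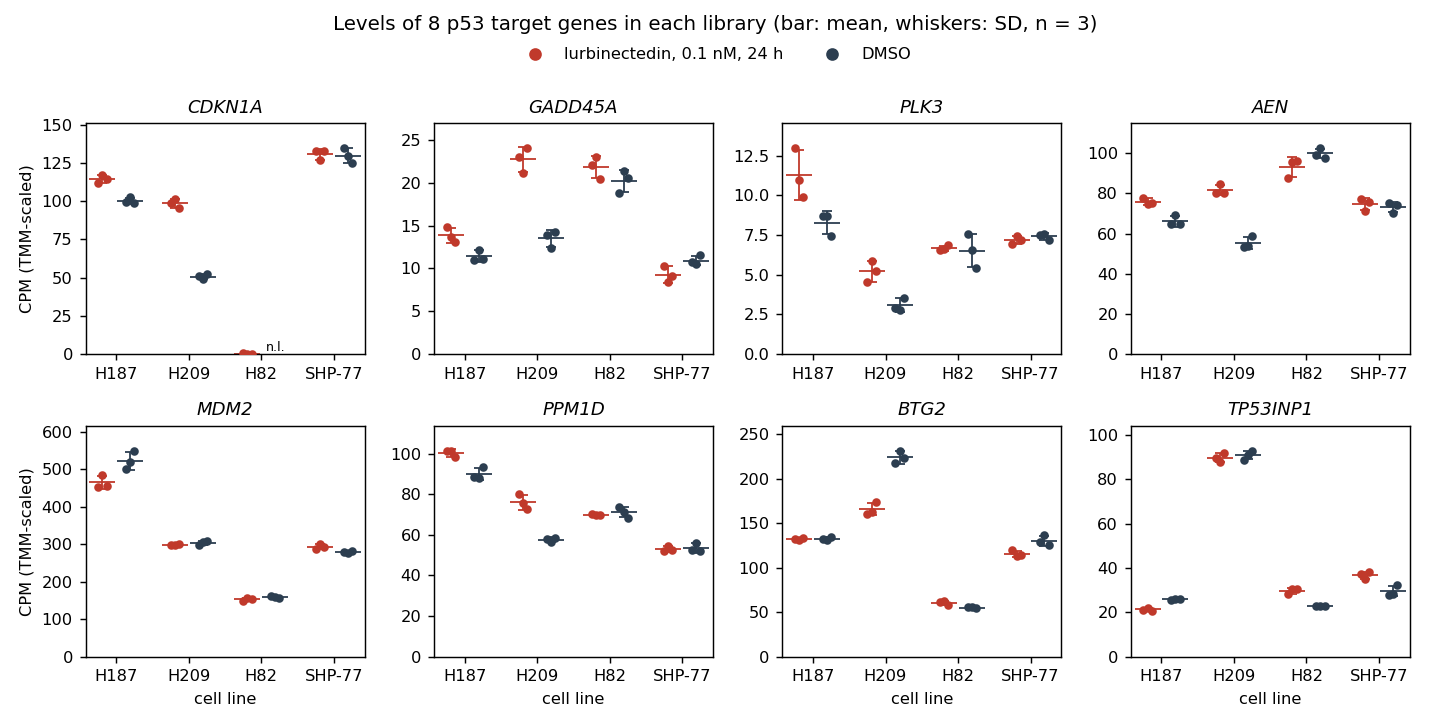
CPM (TMM-scaled) of 8 members in each of the 24 libraries, lurbinectedin (red, left) and DMSO (dark, right) of each line, with the mean as a bar and the SD as whiskers (n = 3); n.l. means not listed in that line's table. CDKN1A, GADD45A, PLK3, AEN and PPM1D stand higher in lurbinectedin in H209, BTG2 stands lower there, and TP53INP1 stands higher in H82 and SHP-77.

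Few death receptors were listed, each in 1 or 2 lines or in none. TNFRSF10B, the TRAIL receptor DR5, was listed only for H82, at 8.46 ± 0.401 CPM in lurbinectedin and 8.04 ± 0.321 in DMSO. FAS was listed only for H187, at 0.840 ± 0.123 CPM in lurbinectedin and 1.29 ± 0.479 in DMSO. EDA2R, a receptor of the TNF family, stood at 7.53 ± 0.792 CPM in lurbinectedin and 7.82 ± 0.301 in DMSO in SHP-77, and at 0.657 ± 0.377 CPM in lurbinectedin and 0.448 ± 0.164 in DMSO in H82. None of these passed by edgeR, 1 (FAS) had an unadjusted p under 0.05, and DESeq2 called none.

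Among the genes of death, autophagy and mitochondria, AEN and NINJ1 rose in both ISL1-high lines. AEN (chromosome 15, 88621296 to 88632281) encodes a nuclease that digests DNA in apoptosis. It had 80.05, 84.6 and 80.3 CPM in lurbinectedin libraries of H209, against 53.5, 53.6 and 59.0 CPM in DMSO libraries. In H187, AEN had 77.7, 74.6 and 75.4 CPM in lurbinectedin libraries, against 64.5, 69.4 and 64.6 CPM in DMSO libraries. Both lines were separated, by 0.56 ± 0.04 in H209 (log2, adjusted p = 3.55e-16) and 0.20 ± 0.04 in H187 (adjusted p = 0.00231). In H82, AEN had 87.7, 95.4 and 96.4 CPM in lurbinectedin libraries, against 99.3, 103 and 97.8 CPM in DMSO libraries. In SHP-77, AEN had 77.3, 71.3 and 75.6 CPM in lurbinectedin libraries, against 75.0, 70.2 and 74.1 CPM in DMSO libraries. Neither passed, at -0.10 ± 0.04 in H82 (adjusted p = 0.24) and 0.03 ± 0.04 in SHP-77.

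TP53INP1, a stress protein of autophagy and apoptosis, is also singled out after its values were seen. It was higher in lurbinectedin in both ISL1-low lines. In H82, TP53INP1 had 28.2, 30.3 and 30.7 CPM in lurbinectedin libraries, against 22.7, 22.8 and 23.0 CPM in DMSO libraries (0.38 ± 0.05, adjusted p = 0.000848). In SHP-77, TP53INP1 had 37.1, 34.9 and 38.1 CPM in lurbinectedin libraries, against 28.0, 28.4 and 32.3 CPM in DMSO libraries (0.31 ± 0.06, adjusted p = 0.00149). Neither pair overlapped, and 0.180% of the genes listed in both lines were called higher in both. edgeR called 0 of 27 members lower in both ISL1-low lines, where 0.730% of genes were, and 0 were lower in both at an unadjusted p under 0.05. DESeq2 called 0 members lower in H82. In H187, TP53INP1 had 21.3, 22.2 and 20.6 CPM in lurbinectedin libraries, against 25.8, 25.9 and 26.1 CPM in DMSO libraries, a fall (-0.28 ± 0.06, adjusted p = 0.0013). In H209 the groups overlapped, with 89.5, 87.9 and 91.9 CPM in lurbinectedin libraries and 88.9, 91.1 and 92.8 CPM in DMSO libraries.

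NINJ1, which ruptures the membrane of dying cells, rose by 0.42 ± 0.09 in H187 and 0.41 ± 0.08 in H209 (log2). TP53I3, a quinone oxidoreductase, rose by 0.21 ± 0.07 in H209 (17.9 ± 0.526 CPM in lurbinectedin and 15.4 ± 0.320 in DMSO). APAF1, the scaffold of the apoptosome, TRIAP1 and RPS27L passed in no line, and their log2 fold changes lay between -0.09 and 0.17. PHLDA3, DRAM1 and SPATA18 stood at low levels where they were listed and did not pass. Of these, DRAM1, an autophagy regulator, had a log2 fold change of 0.82 ± 0.40 in SHP-77 at 0.516 CPM in lurbinectedin and 0.297 CPM in DMSO.

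Of the repair and metabolism genes, FDXR, the mitochondrial ferredoxin reductase, rose in both ISL1-high lines, by 0.43 ± 0.09 in H187 and by 0.27 ± 0.09 in H209. The H209 call did not hold by DESeq2 (adjusted p = 0.0527), with the GC correction (adjusted p = 0.0666), or without lurbinectedin replicate 2 or 3. PRKAB1, a subunit of AMP-activated kinase, rose by 0.33 ± 0.05 in H209 and by 0.13 ± 0.05 in H187 (adjusted p = 0.0459), and the H187 call held in 1 of the 6 fits that leave out 1 library, the one without DMSO replicate 1. It was also lost by DESeq2 (adjusted p = 0.101) and with the replicate block (adjusted p = 0.0611). ZMAT3, an RNA-binding splicing regulator, fell by 0.20 in H187 and by 0.18 in H209 (log2), with overlapping groups in both. The H187 call was lost without lurbinectedin replicate 1 or 3, and the H209 call without lurbinectedin replicate 2 or DMSO replicate 3. POLH, the translesion polymerase eta, fell by 0.14 in H209. RRM2B, SESN1 and TIGAR, which serve nucleotide supply, redox control and glycolysis, passed in none of the lines, with log2 fold changes between -0.10 and 0.14.

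The ISL1-high lines shared part of these changes. Of the 27 members listed in both, 8 rose in both (AEN, CDKN1A, PRKAB1, FDXR, PLK3, GADD45A, NINJ1 and PPM1D), where 8.73% of the genes listed in both were called higher in both. CCNG2 and ZMAT3 fell in both, where 9.57% of genes did. By edgeR 0 of the 25 members listed everywhere were called higher in all 4 lines, where 0.0526% of genes were, and 0 lower, where 0.552% were. At an unadjusted p under 0.05 the counts were also 0 and 0. DESeq2 called 1 member in H82, TP53INP1, which fell in H187.

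The difference in response was tested in 1 fit of all 24 libraries over the 11408 genes shared by the 4 line tables, which include 25 members. The mean effect in the ISL1-high lines minus that in the ISL1-low lines was positive past the threshold for 8 members and negative for 5. Over all genes 15.9% were called positive, 15.5% negative and 31.4% either way. The largest positive differences were those of PLK3 (0.61 ± 0.12, adjusted p = 0.00013), GADD45A (0.58 ± 0.08, adjusted p = 2.44e-07) and AEN (0.41 ± 0.04, adjusted p = 1.18e-09). PPM1D (0.30), NINJ1 (0.25), FDXR (0.23), PRKAB1 (0.21) and TRIM32 (0.13) followed. TRIM32 lost its call with RLE size factors, by DESeq2 and with the replicate block (adjusted p of up to 0.0705), and FDXR with a correction for transcript GC content (adjusted p = 0.0556). Leaving out 1 of the 24 libraries took the call from TRIM32 in 15 fits, from FDXR in 13, from MDM2 in 6 and from NINJ1 without DMSO replicate 3 of H82. The negative ones were TP53INP1 (-0.49 ± 0.05, adjusted p = 2.83e-10), CCNG2 (-0.29), BTG2 (-0.20), ZMAT3 (-0.18) and MDM2 (-0.10). TRIM32, BTG2 and MDM2 changed sign between some of the 4 line pairings across the classes. For BTG2 the fit of H187 and SHP-77 gave a called difference the other way, 0.17 ± 0.05 for H187 minus SHP-77 (adjusted p = 0.0335). Fits of 2 lines passed in all 4 pairings for TP53INP1 and CCNG2. H187 minus H82 did not pass for GADD45A (0.16, adjusted p = 0.356) or PLK3 (0.42, adjusted p = 0.103). H187 minus SHP-77 did not pass for AEN (0.17, adjusted p = 0.105) or PPM1D (0.17, adjusted p = 0.091). The other pairings of these genes passed. PRKAB1 and TRIM32 passed with H209 and not with H187. FDXR and MDM2 passed only for H187 minus SHP-77, and NINJ1 only for H209 minus SHP-77. ZMAT3 passed in both pairings with SHP-77 and in neither with H82. Its difference was -0.12 for H187 minus H82 (adjusted p = 0.412) and -0.08 for H209 minus H82 (adjusted p = 0.455).

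The classes were not uniform. The signed difference of H209 minus H187 was positive for GADD45A (0.48 ± 0.11), AEN (0.36 ± 0.06) and PPM1D (0.24 ± 0.06), which rose in both lines and further in H209. It was also positive for TP53INP1 (0.26 ± 0.07) and MDM2 (0.15 ± 0.05), which were called lower in H187 and had log2 fold changes of -0.02 in H209. It was negative for BTG2 (-0.44 ± 0.05), which fell in H209 and had a log2 fold change of 0.00 in H187. These are 6 of 25 members, where 5.65% of all genes were called higher, 5.46% lower and 11.1% either way. The MDM2 call was lost in 11 of the fits that leave out 1 library and with the replicate block (adjusted p = 0.0698). Between SHP-77 and H82, 1 member of 25 differed, where 0.342% of all genes were called, 0.175% higher and 0.167% lower. That was BTG2 (-0.30 ± 0.06, adjusted p = 0.00678), which had a log2 fold change of -0.17 in SHP-77 and 0.13 in H82.

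Levels without drug differed widely between the lines. Per kilobase of exon, BTG2 was the most abundant member in H209 (82.7 CPM per kb), MDM2 in H187 (69.2), CCNG1 in H82 (56.2) and CDKN1A in SHP-77 (49.2). At the low end stood DRAM1, FAS, PHLDA3 and SPATA18, below 1 CPM per kb wherever a DMSO value was listed. In the 12 DMSO libraries, all 25 shared members differed between the ISL1-high and ISL1-low lines, 10 higher and 15 lower, where 45.3% of all genes were called higher, 43.8% lower and 89.1% either way. With the same sign in all 4 pairs of lines, MDM2 (0.82 ± 0.03), BTG2 (0.93 ± 0.03), APAF1 (1.07 ± 0.03) and MDM4 (0.49 ± 0.03) were higher in the ISL1-high lines, as were 19.6% of all genes (log2, edgeR). AEN (-0.59 ± 0.03), SESN1 (-1.004 ± 0.046), TRIM32 (-0.72 ± 0.04) and RPS27L (-0.29 ± 0.04) were lower, as were 19.4% of all genes. With class as the only term RPS27L did not pass (adjusted p = 0.0663). CDKN1A is outside this fit. Under DMSO it averaged 50.7 ± 1.61 CPM in H209 and 100.2 ± 2.05 CPM in H187, and in SHP-77 the mean was 129.7 ± 4.95 CPM. These values and those per kilobase were scaled within each line, whereas the fit of the 12 DMSO libraries scaled them together.

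**Figure D3:**
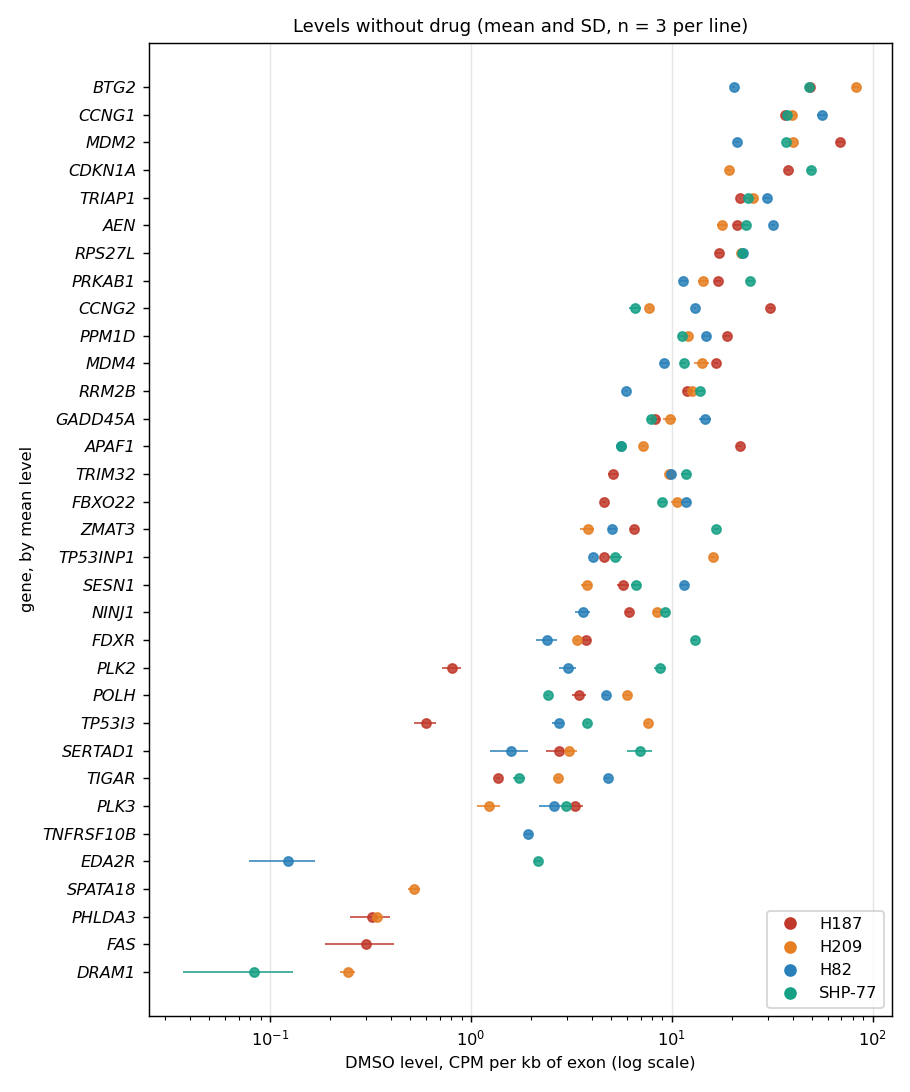
Mean DMSO level of each listed member in CPM per kb of exon (log axis), with 1 colour per line and the SD over 3 libraries as whiskers; genes run by mean level and a line without a point did not list the gene. BTG2 and MDM2 stand near the top, with H209 highest for BTG2 and H187 for MDM2. Levels were scaled within each line.

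A second list of 40 p53 targets outside the 34 held genes with larger changes, although its median log2 fold change was 0.03 in H209 and 0.13 in H187. In H209, 12 rose and 4 fell of 32 listed, and in H187, 12 rose and 2 fell of 30. The 16 of 32 in H209 are near the 45.2% of all genes, and the H187 calls are 46.7% of those listed, where 24.9% of all genes were called. BBC3, the BH3-only protein PUMA, rose by 2.35 ± 0.12 in H209 (12.7 ± 1.07 CPM in lurbinectedin and 2.49 ± 0.528 in DMSO) and by 0.90 ± 0.14 in H187. SESN2, a stress sestrin, rose by 1.78 ± 0.05 in H209 and by 0.96 ± 0.09 in H187. PMAIP1, the BH3-only protein NOXA, rose by 1.15 ± 0.08 in H209 and by 0.26 ± 0.05 in H187. DDB2, the ultraviolet damage sensor, rose by 0.44 ± 0.06 in H209 and 0.43 ± 0.06 in H187. SFN, the 14-3-3 sigma protein, rose by 0.28 ± 0.05 in H209 and 0.47 ± 0.05 in H187. These 5 were named for the smallest p, and the lowest of the genes that fell in H209, chosen after their values were seen, were TM7SF3 (-0.32 ± 0.03) and CMBL (-0.24 ± 0.03). In the ISL1-low lines 1 rose and 1 fell of 29 in H82 and 3 rose and 1 fell of 34 in SHP-77.

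Beside these, the ATF4 and CHOP list of the integrated stress response was called almost whole. In H209, 15 of 15 rose, with a median log2 fold change of 1.01, where 22.7% of all genes were called higher. In H187, 13 of 14 listed genes rose, with a median of 0.65, where 12.2% of all genes were called higher. ATF4 itself had the lowest log2 fold change of the list in H187, 0.02, and in H209 it had 0.56. ATF3 had 147 ± 4.23 CPM in lurbinectedin and 25.5 ± 0.695 in DMSO in H209, and 21.7 ± 0.537 CPM in lurbinectedin and 8.06 ± 0.522 in DMSO in H187. In H82 edgeR called 0 of 14 higher and 1 lower (SLC7A11, -0.35 ± 0.07), with 4 at an unadjusted p under 0.05 and 1 call by DESeq2. In SHP-77 edgeR called 0 of 15, with 3 at an unadjusted p under 0.05 and 0 calls by DESeq2. The share of the ATF4 genes in the response of CDKN1A, GADD45A, PLK3 and the other members was not tested.

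Cell cycle genes that p21 and the DREAM complex are known to lower fell in the ISL1-high lines. In H187 13 of 16 fell and 2 rose (median -0.34), and in H209 13 of 16 fell and 2 rose (median -0.47). Of all genes 12.7% were called lower and 12.2% higher in H187, and 22.5% lower and 22.7% higher in H209. The 2 that rose in each line were MYBL2 and CDC25A. PLK1 fell by 0.89 in H209 and by 0.81 in H187, and CCNB1 fell by 0.92 in H209 and by 0.71 in H187. In H82 edgeR called 0 of 16, with 2 at an unadjusted p under 0.05 and 0 by DESeq2, and in SHP-77 2 rose and 1 fell. These falls stood beside a CDKN1A rise of 0.96 in H209 and of only 0.19 in H187 (log2). Whether p21 took part was not tested.

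**Figure D4:**
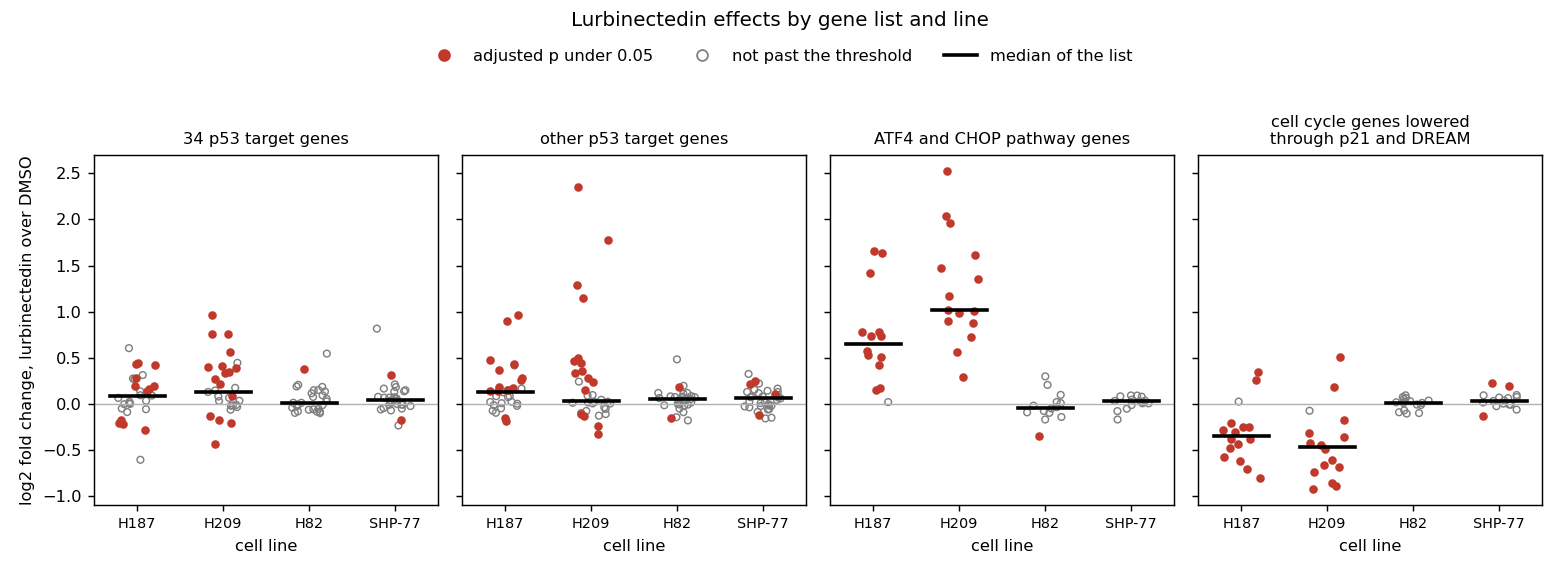
Log2 fold change (lurbinectedin over DMSO) of each listed gene in the 4 lines for the 34 p53 targets, the second list of p53 targets, the ATF4 and CHOP genes and the cell cycle genes lowered through p21 and DREAM. Filled red points passed an adjusted p under 0.05 and bars are medians; the ATF4 median is 1.01 in H209 and 0.65 in H187, and the median of the 34 stays at or below 0.13 in every line.

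The median span of the members was 12.9 kb in H187, against 28.2 kb over all genes listed there. Of the 29 members of H187, 9 spanned 30 to 100 kb and 1 spanned 100 to 300 kb. Genes of 300 kb or more had a median log2 fold change of -0.40 in H187 and -0.44 in H209, and no member is that long. Across the 29 members of H187, Spearman's rho between span and log2 fold change was -0.43, beside -0.25 over all 14023 genes. In H209 it was -0.21 over 29 members beside -0.25, in H82 -0.28 over 28 members beside -0.31, and in SHP-77 0.04 over 29 members beside -0.26. These are descriptions across genes of the same libraries, and the part of gene length in the members' changes was not tested.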

How the data were processed

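Total RNA from 4 lines under lurbinectedin or DMSO was sequenced after ribosomal depletion with a stranded kit, per the labels' protocols. STAR 2.7.10a, Subread 2.0.3 with featureCounts, and edgeR 4.2.0 are named for hg38, per the submitters' processing notes. The annotation and the strand setting of the counting are not given in the sources used here, so reads of a gene and an antisense partner may be mixed. Per the file headers the authors deposited raw counts, their log2 CPM, a log2 fold change, a signed fold score, a p-value and an FDR per gene. The counts were used here. The authors' log2 fold changes and p-values (as FDR) served as an alternative only, and their log2 CPM and fold scores were not used.

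Each line was fitted alone on its 6 libraries in R 4.3.3 with edgeR 4.0.16: filterByExpr (minimum count 10, minimum total 15), TMM, glmQLFit, glmQLFTest, and Benjamini-Hochberg adjustment over all genes, at a threshold of 0.05. Class and line differences used all 24 libraries with a mean per line and treatment, and the DMSO difference the 12 DMSO libraries with a mean per line. Levels are CPM on TMM-scaled sizes within each line. The p-values measure the spread between triplicate cultures of these lines and hold for these lines. The fits were checked on simulated data with known changes, larger than most changes of the members and with the same spread for every gene. The check does not cover smaller changes.

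Library values are given for CDKN1A and MDM2, for members that passed in a line with a log2 change of 0.5 or more in size, and for members whose class response differed by at least 0.5, and for the genes named as chosen later. Some genes are not reported here. From other lists, genes with the smallest p are named. The members and lists were chosen with earlier results of these data known. Alternatives were RLE size factors, no filter or a mean of at least 1 CPM, DESeq2 1.42.0, a replicate block, 1 joint fit of the 24 samples, class as the only term, leaving out each library, and the authors' deposited table. GC correction and pairs of lines were added after the data were seen. GC content had a value for 96.1% of genes. The counts of the drug libraries in the line tables and the class table were compared in 160491 cells and 0 differed.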

Additional observations from a re-analysis of the deposited data

Results flagged for a closer look

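The response to lurbinectedin differed between the ISL1-high and the ISL1-low lines for 13 members in the test of the difference itself (edgeR, all 24 libraries). The signed difference was positive for PLK3 (0.61), GADD45A (0.58), AEN (0.41), PPM1D (0.30), NINJ1 (0.25), FDXR (0.23), PRKAB1 (0.21) and TRIM32 (0.13), all on the log2 scale. It was negative for TP53INP1 (-0.49), CCNG2 (-0.29), BTG2 (-0.20), ZMAT3 (-0.18) and MDM2 (-0.10). TRIM32, BTG2 and MDM2 changed sign between some of the 4 line pairings across the classes, and for BTG2 H187 minus SHP-77 was 0.17 (adjusted p = 0.0335). Over all genes 31.4% were called in this comparison. The weakest calls were TRIM32 (adjusted p = 0.0454), FDXR (adjusted p = 0.0386) and MDM2 (adjusted p = 0.0294). In the fits of 2 lines at a time, TP53INP1 and CCNG2 alone passed in all 4 pairings across the classes.

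Within the ISL1-high lines the signed difference of H209 minus H187 was positive for GADD45A (0.48), AEN (0.36) and PPM1D (0.24), which rose in both. It was positive for TP53INP1 (0.26) and MDM2 (0.15), which were called lower in H187 and not in H209, and negative for BTG2 (-0.44), called lower in H209 and not in H187. Within the ISL1-low lines the difference of SHP-77 minus H82 passed for BTG2 (-0.30).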

How the results depend on the processing

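Counts of members called kept within 1.5 times under the other settings in H209 (13 to 16) and H187 (11 to 12), and no value changed sign past the threshold. Leaving out 1 library gave 12 to 16 members in H209, 9 to 12 in H187, 2 to 3 in SHP-77 and 1 to 2 in H82. It gave 10 to 13 for the class difference in response, 5 to 7 for H209 minus H187, 1 for SHP-77 minus H82 and 24 to 25 for the DMSO difference. The 2 members of H82 came without DMSO replicate 3, where CCNG1 was called lower. FAS was called lower in H187 without DMSO replicate 1. In H209, MDM4 was called higher without DMSO replicate 2 or 3, and APAF1 higher without lurbinectedin replicate 3. RRM2B was called lower there without lurbinectedin replicate 1. SERTAD1 was called higher in SHP-77 without DMSO replicate 1. With the GC correction 5 members passed in SHP-77, 4 of them higher, adding MDM2 (0.08), CCNG2 (0.20) and RPS27L (0.18). With class as the only term 9 of 25 members differed under DMSO, and RPS27L was not among them. In that fit all DMSO libraries of a class stood as replicates, so the triplicates of a line counted as independent. Calls over all genes in H82 ran from 182 to 755 over the alternatives and from 93 to 1397 on leaving out 1 library; in SHP-77 they ran from 451 to 898 and from 417 to 706, and for SHP-77 minus H82 from 18 to 59 and from 17 to 90.

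Members that lost a call on leaving out a library were PRKAB1, GADD45A, ZMAT3 and PPM1D in H187, and FDXR, SERTAD1, CCNG1 and ZMAT3 in H209. In the class difference in response they were TRIM32, MDM2, FDXR and NINJ1, and in H209 minus H187 MDM2. Other members gained calls in these comparisons. POLH was called negative in the class difference with RLE size factors (edgeR adjusted p = 0.0465), with the GC correction (0.0452) and without some libraries. In H209 minus H187, PRKAB1 was called positive with RLE size factors (edgeR adjusted p = 0.0467) and without some libraries. TRIM32 and MDM4 were called positive there only on leaving out a library. DESeq2 dropped PRKAB1 in H187 and FDXR, SERTAD1 and CCNG1 in H209, and TRIM32 in the class difference. The joint fit and the authors' deposited table dropped CCNG1, and the GC correction dropped FDXR in H209 and in the class difference. The cause was not tested.

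Replicate numbers gave no clear sign of pairing. Correlations of same-numbered deviations ran from -0.21 to 0.18, and the largest correlation with another number from -0.09 to 0.30. For number 3 of H82 the same-number value of 0.18 exceeded the -0.09 with another number. With 3 libraries per group these correlations cannot exclude pairing. With the replicate number as a block, 16 members were called in H209, 11 in H187, 2 in SHP-77, 1 in H82, 12 in the class difference, 5 in H209 minus H187, 1 in SHP-77 minus H82 and 25 under DMSO. The block ended the calls of PRKAB1 in H187, TRIM32 in the class difference and MDM2 in H209 minus H187.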
